A study of Mus musculus with 6 samples.

Results

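The SLC25 carriers are the transport proteins through which nucleotides, phosphate, amino acids, carboxylates, acylcarnitines, iron and cofactors cross the inner membrane of mitochondria. The genes were taken from the count tables as every symbol made of Slc25a and a number, which gave 47 genes of the 23237 distinct symbols. Each of the 47 stood on 1 row and matched 1 protein-coding gene of the GENCODE M21 annotation (mouse build GRCm38). The study compared primary acinar cells, the enzyme-secreting cells of the exocrine pancreas, from mice of strain C57BL/6J. In 3 libraries the genotype is given as ERRgamma -/-, a conditional knock-out (cKO) of the nuclear receptor gene Esrrg, and in 3 control libraries as wild type. Cells of both groups were kept in Waymouth's medium containing serum, a trypsin inhibitor and epidermal growth factor. RNA was read with the Lexogen QuantSeq kit, which counts 1 tag near the 3' end of a transcript. No source used here gives the Cre line, the deleted part of the gene, the time in culture or the age and sex of the mice. Nor is it stated whether the 3 libraries of a group came from separate mice, so the spread behind the p-values may be technical only. Esrrg itself had 0, 9 and 1 counts in cKO and 0 in each control library, which cannot check the labels.

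As background, the carriers are made in the cytosol without a cleaved presequence, passed through the outer membrane and inserted into the inner membrane by the TIM22 complex. Many exchange a solute for another, so that ATP made in the matrix leaves as ADP enters, and citrate leaves as malate enters. Acinar cells spend much ATP on protein synthesis and secretion and take up large amounts of amino acids. ERR receptors are known as activators of genes for mitochondrial energy metabolism.

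Library totals were 15.2 M, 17.0 M and 16.4 M counts (M, mega) in cKO and 24.4 M, 25.2 M and 23.0 M in control. A list of digestive genes took 20.3% to 53.4% of the counts in cKO and 81.6% to 83.1% in control. Most of its genes encode enzymes, but it also holds Reg1, Reg2, Reg3b, Zg16, Sycn and Clps, which do not. The carriers together held 12030 to 20648 counts per cKO library and 4627 to 5412 per control library. Levels are given as counts per M (CPM) of the effective library size, scaled by the trimmed mean of M values (TMM), which centres the bulk of genes on no change. Effective sizes were 33.2 M to 60.0 M in cKO and 7.52 M to 8.49 M in control, so that a gene with no control count can still lie at 0.353 to 0.399 CPM there (3 counts). Acinar markers fell in 8 of 8 genes, with summed levels of 11200 to 64400 CPM in cKO and 396000 to 466000 CPM in control. Fibroblast and stellate markers rose in 7 of 8 genes (3570 to 5090 CPM in cKO, 723 to 817 CPM in control) and leukocyte markers in 6 of 7 tested genes (141 to 305 CPM in cKO, 37.0 to 56.9 CPM in control). None of the markers of these 3 lists was at 0 in all libraries. Of all tested genes, 24.0% rose and 20.7% fell. Duct markers split (2 rose and 4 fell of 7), as did endothelial ones (2 rose and 3 fell of 8), and 1 of 8 islet markers and 1 of 2 adipocyte markers fell. These shifts run beside every result below and their part in it was not tested; in bulk RNA, fewer cells of a type and less RNA per cell cannot be told apart. cKO replicate 2 had the highest acinar and the lowest fibroblast and leukocyte marker sums of its group.

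Most carriers were lower in cKO relative to the bulk of genes, while 4 were higher. Of the 47 genes, 34 had enough counts to be tested. In the edgeR quasi-likelihood test with Benjamini-Hochberg adjustment over all 13132 tested genes, 18 carriers fell and 4 rose at an adjusted p under 0.05, and 12 did not pass, against 44.7% of all tested genes called in either direction. That is 52.9% of the tested carriers lower against 20.7% of all tested genes, and 11.8% higher against 24.0%. Changes of at least 2-fold were called for 9 lower carriers (13.4% of all tested genes) and 3 higher ones (19.3%). The median log2 fold change (cKO over control) was -0.80 over the carriers and 0.10 over all tested genes. The genes that rose were Slc25a4, Slc25a24, Slc25a25 and Slc25a20. Calls that held when any 1 library was left out numbered 3 of the 4 rises (Slc25a4, Slc25a24 and Slc25a20) and 7 of the 18 falls (Slc25a3, Slc25a5, Slc25a15, Slc25a23, Slc25a35, Slc25a39 and Slc25a51). The number of falls was 10 without cKO replicate 1 or without control replicate 1 and 12 without cKO replicate 3. Levels did not overlap between the groups for 25 of the 34 genes, against 56.2% of all tested genes; cKO lay below control in 21 of them and above in 4, against 25.4% and 30.7% of all tested genes.

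**Figure D1:**
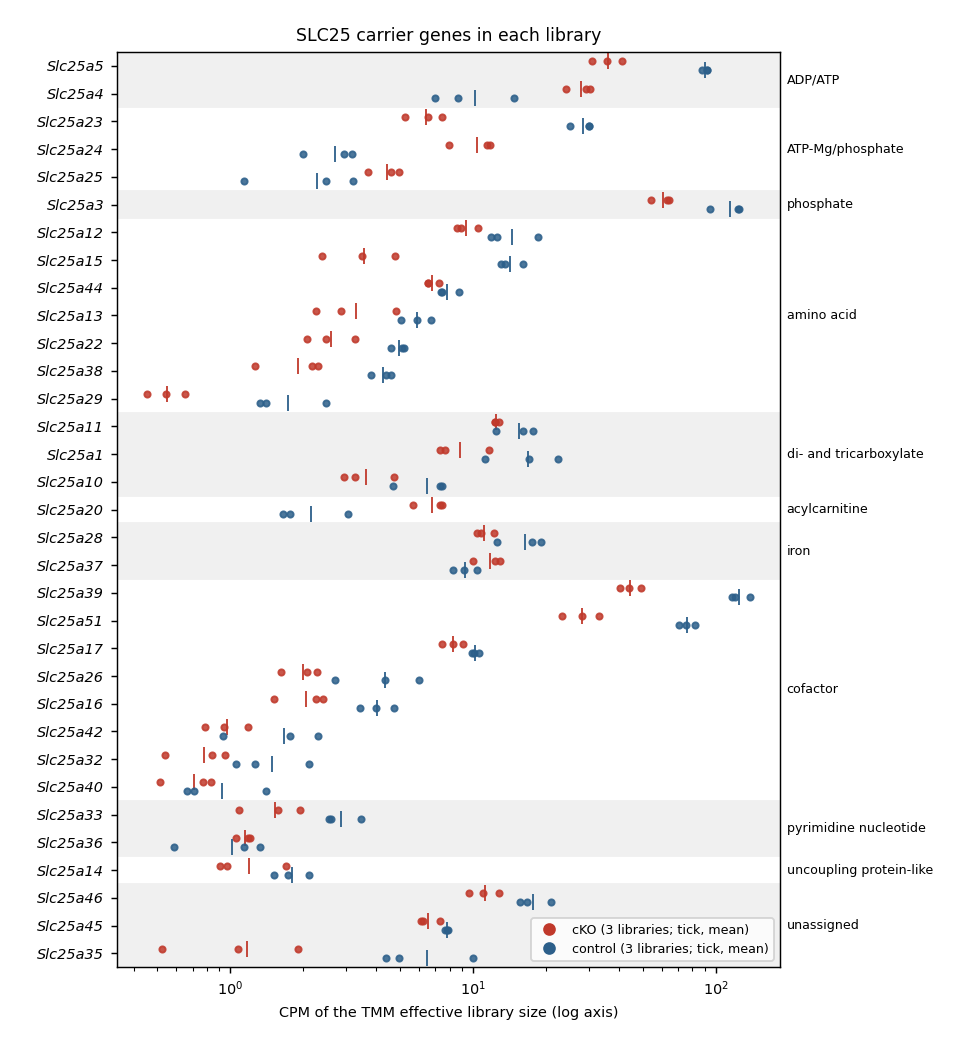
Level of 33 of the 34 tested SLC25 genes in each library, in CPM of the TMM effective library size on a log axis; points are libraries, ticks are means of 3, red is cKO and blue is control. The red points lie left of the blue ones in most rows and to the right for Slc25a4, Slc25a24, Slc25a25 and Slc25a20.

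The direction of most of these changes depends on the scale. As a share of all counts, the 47 genes took 0.107% ± 0.0315 in cKO and 0.0208% ± 0.000691 in control (SD, n = 3 each), so the family's share of the library was higher in cKO (exact 2-sided permutation p = 0.1, the smallest that 3 against 3 allows). On library totals all 34 tested carriers had a positive log2 fold change, and the median shift of all genes between the scales was 3.26. The carriers' share was also taken of the counts outside the digestive list and the high-count symbols Rn45s, a ribosomal RNA precursor, and Casp9. It was 0.18% ± 0.00711 in cKO and 0.164% ± 0.0121 in control. Casp9 held 0.843% to 2.78% of all counts in cKO and 2.57% to 2.81% in control. Whether those reads come from that gene was not tested. In TMM units the summed level of the carriers was 318 to 363 CPM in cKO and 588 to 674 CPM in control. "Rose" and "fell" below are relative to the bulk of genes on the TMM scale. Ratios between carriers within 1 library do not depend on any of these scales and are given beside them.

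**Figure D2:**
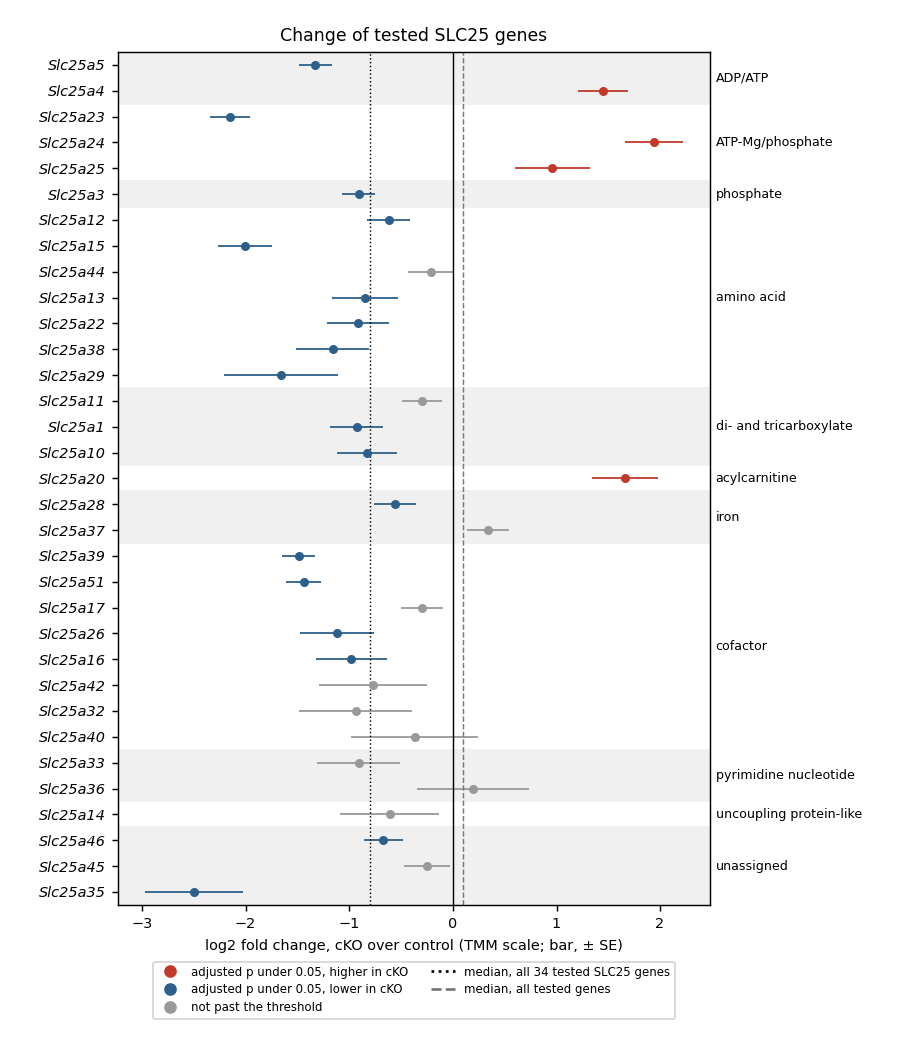
Log2 fold change (cKO over control, TMM scale) of 33 of the 34 tested SLC25 genes with its SE, grouped by substrate; red and blue mark adjusted p under 0.05. The dotted line is the median of -0.80 over all 34 and the dashed line the median of 0.10 over all tested genes.

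The ADP/ATP carriers, which let newly made ATP out of the matrix, changed in opposite directions. Slc25a5, the ADP/ATP carrier AAC2 known from proliferating cells (chromosome X, 36795651 to 36798807), had 31.0, 41.2 and 35.7 CPM in the cKO libraries, against 92.0, 91.8 and 87.9 CPM in the control libraries. Slc25a4, the isoform AAC1 that predominates in heart and skeletal muscle (chromosome 8, 46206797 to 46211284), had 29.2, 24.1 and 30.3 CPM in cKO, against 8.64, 14.8 and 6.99 CPM in control. The groups did not overlap for either gene. Slc25a5 fell by 1.33 ± 0.16 on the log2 scale (SE; edgeR adjusted p = 1.11e-05) and Slc25a4 rose by 1.45 ± 0.24 (adjusted p = 0.000215). Slc25a31, the germ-cell isoform AAC4, had 2, 12 and 0 counts in cKO and 0 in each control library, and its cKO levels of at most 0.362 CPM are within the range that a count of 0 allows over the control libraries. Slc25a5 has a processed pseudogene, Slc25a5-ps, so its absolute level is uncertain.

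Slc25a5 made up a smaller part of the counts of this pair in every cKO library than in any control library. Slc25a5 made up 51.5% (exact Clopper-Pearson 95% interval 49.8 to 53.1), 63.1% (61.1 to 65.2) and 54.1% (52.5 to 55.6) of the counts of Slc25a5 and Slc25a4 in cKO. In control it made up 91.4% (89.2 to 93.3), 86.1% (83.6 to 88.3) and 92.6% (90.5 to 94.4). These intervals treat each count as an independent draw and leave out the spread between libraries. PCR copies are not told apart, so the intervals may be too narrow even for counting error. The log2 ratio of Slc25a5 to Slc25a4 averaged 0.37 ± 0.36 in cKO and 3.22 ± 0.53 in control (SD, n = 3 each), a difference of -2.86 (exact 2-sided permutation p = 0.1, the smallest possible; 0.225 adjusted over the 9 pairs compared). The carriers' joint share of all SLC25 counts differed less, at 18.7% ± 0.557 in cKO and 15.9% ± 0.919 in control (SD, n = 3 each).

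The promoters of this pair and of the other carriers with the clearest opposite changes are shown because ERR receptors bind the sequence AAGGTCA. The 250 bases before the RefSeq start are given 5' to 3' in build GRCm38.p6, with capitals marking matches, on either strand, to that sequence, to the GC box spelled GGGCGG, to the CCAAT box and to the E-box spelled CACGTG. The windows are chr8:46211063-46211312, minus strand for Slc25a4, chrX:36795347-36795596, plus strand for Slc25a5, chr3:109122899-109123148, plus strand for Slc25a24, chr9:108661886-108662135, plus strand for Slc25a20 and chr17:57059864-57060113, minus strand for Slc25a23. The RefSeq and GENCODE starts differ for some of them: 222 bases of the Slc25a4 window and 48 of the Slc25a20 window lie inside the GENCODE gene, and the Slc25a5 window ends 54 bases before it. The first 3 sequences belong to genes that rose and the last 2 to genes that fell.
Slc25a4: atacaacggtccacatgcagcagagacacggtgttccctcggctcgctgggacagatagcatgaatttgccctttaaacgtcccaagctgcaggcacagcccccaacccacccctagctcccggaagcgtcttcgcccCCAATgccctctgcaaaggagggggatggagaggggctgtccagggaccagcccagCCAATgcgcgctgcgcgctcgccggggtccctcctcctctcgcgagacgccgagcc
Slc25a24: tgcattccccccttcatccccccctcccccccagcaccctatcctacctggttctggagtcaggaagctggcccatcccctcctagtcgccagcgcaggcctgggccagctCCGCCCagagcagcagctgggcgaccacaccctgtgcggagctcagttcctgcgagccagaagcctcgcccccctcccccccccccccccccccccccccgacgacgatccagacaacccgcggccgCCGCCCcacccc
Slc25a20: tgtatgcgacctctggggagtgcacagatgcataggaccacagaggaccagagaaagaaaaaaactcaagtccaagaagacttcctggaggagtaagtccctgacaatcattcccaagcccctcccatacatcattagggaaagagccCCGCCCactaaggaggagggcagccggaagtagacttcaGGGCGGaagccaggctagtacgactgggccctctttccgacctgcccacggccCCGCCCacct
Slc25a5: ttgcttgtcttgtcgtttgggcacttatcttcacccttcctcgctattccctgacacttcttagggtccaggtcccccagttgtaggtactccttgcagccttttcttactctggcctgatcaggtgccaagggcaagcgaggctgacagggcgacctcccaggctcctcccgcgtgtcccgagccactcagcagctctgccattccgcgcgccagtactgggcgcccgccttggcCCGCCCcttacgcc
Slc25a23: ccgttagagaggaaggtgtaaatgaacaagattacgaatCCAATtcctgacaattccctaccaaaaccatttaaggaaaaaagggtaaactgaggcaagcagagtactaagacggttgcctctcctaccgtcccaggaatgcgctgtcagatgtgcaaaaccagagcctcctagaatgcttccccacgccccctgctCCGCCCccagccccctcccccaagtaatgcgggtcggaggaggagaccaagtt

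None of these 5 windows holds AAGGTCA on either strand. RefSeq windows were at hand for 36 of the 47 genes, 46 windows in all, and 1 of them, that of the untested Slc25a34, holds AAGGTCA (2.17%, against 4.08% of 32851 windows of all genes). The GC box is in 69.6% of the carriers' windows against 32.7% of all windows, the CCAAT box in 45.7% against 33.8% and the E-box in 17.4% against 6.02%, each motif searched on its own. Slc25a4 has 2 CCAAT boxes and no GC box in its window, Slc25a5 has 1 GC box and no CCAAT box, and Slc25a20 has 3 GC boxes, Slc25a24 has 2, and Slc25a23 has 1 GC box and 1 CCAAT box. These are matches of letters in short windows and say nothing of binding there or elsewhere in the genes.

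**Figure D3:**
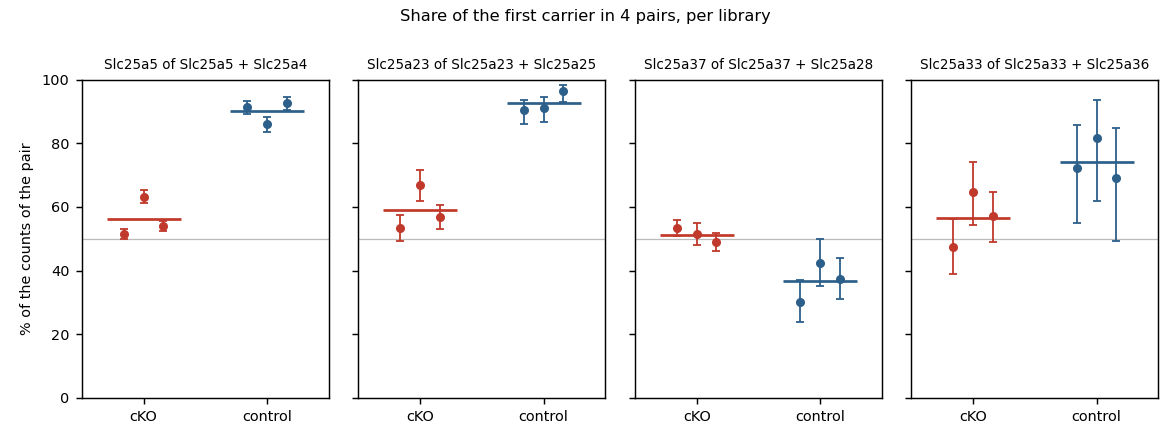
Share of the first carrier in the counts of 4 pairs, in % per library with exact 95% intervals. The pairs drawn are the 4 of the 9 compared whose groups did not overlap. Lines are group means, red is cKO and blue is control. Slc25a5 averages 56.2% in cKO and 90.0% in control, and Slc25a23 averages 59.1% in cKO and 92.6% in control, with no overlap of the groups.

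The calcium-regulated ATP-Mg/phosphate carriers, which adjust the adenine nucleotide content of the matrix when cytosolic calcium rises, were also split. Slc25a23 (SCaMC-3; chromosome 17, 57043711 to 57059863) had 5.27, 7.45 and 6.52 CPM in cKO, against 29.9, 25.1 and 30 CPM in control. Slc25a24 (SCaMC-1; chromosome 3, 109123149 to 109168457) had 11.8, 7.93 and 11.4 CPM in cKO, against 1.99, 2.95 and 3.18 CPM in control. Thus Slc25a23 was the most abundant of the class in every control library and Slc25a24 in every cKO library. In cKO replicate 2 the margin was small, at 263 counts of Slc25a24 against 247 of Slc25a23. Slc25a23 fell by 2.15 ± 0.19 (log2, SE; edgeR adjusted p = 1.12e-06) and Slc25a24 rose by 1.94 ± 0.28 (adjusted p = 5.69e-05). Slc25a25 (SCaMC-2) rose by 0.96 ± 0.36 to 4.41 ± 0.65 CPM in cKO, against 2.27 ± 1.04 CPM in control (SD, n = 3 each; adjusted p = 0.0431). Its call was lost without cKO replicate 1 or 3 (0.0931 and 0.151), without control replicate 2 or 3 (0.0774 and 0.146) and in thinned libraries (0.0775). Slc25a41, the fourth of the class, had 0 counts in all 6 libraries.

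Relative to Slc25a25 in the same library, Slc25a23 stood 9.06-fold lower in cKO (exact permutation p = 0.1, adjusted 0.225). The mean log2 ratio was 0.54 ± 0.43 in cKO and 3.72 ± 0.80 in control (SD, n = 3 each). Slc25a25 had only 24, 21 and 9 counts in the control libraries, where the log2 ratio ran from 3.20 to 4.64. Slc25a24 had 15, 25 and 25 counts there. The ratio of Slc25a24 to Slc25a25 overlapped between the groups (difference 0.89, exact permutation p = 0.4; 0.39 without control replicate 1 and 1.43 without control replicate 3). Among the cKO libraries, Slc25a24 and the other 3 carriers that rose (Slc25a4, Slc25a25 and Slc25a20) were lowest in replicate 2, as were the fibroblast and leukocyte marker sums. Replicate 2 was also the cKO library nearest to the control mean for 70.2% of all genes that changed. A link of these carriers to a cell type was not tested. The gene Crb3 overlaps Slc25a23 on the other strand and fell as well (-1.86 ± 0.27, adjusted p = 6.96e-05), and no source used here gives the strand setting of the counting.

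Slc25a3, the phosphate carrier that feeds ATP synthesis and also takes in copper (chromosome 10, 91116574 to 91124059), had the highest mean of all carriers in cKO and the second highest in control. It had 53.9, 63.2 and 64.3 CPM in cKO, against 124, 123 and 94.4 CPM in control, without overlap. It fell by 0.91 ± 0.16 (log2, SE; edgeR adjusted p = 0.000378), close to the family's median. Its share of all SLC25 counts overlapped between the groups, at 17.7% ± 0.903 in cKO and 17.9% ± 1.68 in control (SD, n = 3 each).

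All 7 tested amino acid carriers had negative fold changes with no overlap of the groups, and 6 of them passed the test. Of all tested genes, 25.4% lay below control without overlap and 20.7% were called lower. The class median of -0.92 was near the family's -0.80. The share of the class in the SLC25 counts overlapped, at 8.21% ± 0.561 in cKO and 8.48% ± 1.08 in control (SD, n = 3 each). The largest fall of the class was that of Slc25a15, the ornithine/citrulline carrier (chromosome 8, 22375551 to 22398597). It had 3.5, 4.77 and 2.39 CPM in cKO, against 13.6, 16.1 and 13 CPM in control, and fell by 2.01 ± 0.26 (log2, SE; edgeR adjusted p = 2.36e-05). Slc25a29, a carrier of basic amino acids, had 0.455, 0.543 and 0.650 CPM in cKO, against 1.33, 2.47 and 1.40 CPM in control. It fell by 1.66 ± 0.55 (adjusted p = 0.0243) on 10 to 21 counts per control library, and its call was lost without any 1 cKO library (0.0613 to 0.0962), without control replicate 2 (0.122), in thinned libraries (0.0538) and when replicate number entered as a block (0.0809).

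The aspartate/glutamate carriers of the malate-aspartate shuttle, which are activated by calcium, changed less. Slc25a12 (aralar) had 8.93, 10.5 and 8.61 CPM in cKO, against 12.6, 11.9 and 18.5 CPM in control, and fell by 0.62 ± 0.21 (edgeR adjusted p = 0.0263). Slc25a13 (citrin) fell by 0.85 ± 0.32 to 3.30 ± 1.33 CPM in cKO, against 5.89 ± 0.84 CPM in control (SD, n = 3 each; adjusted p = 0.0435). Slc25a12 was the more abundant isoform in every library, and the share of Slc25a13 in the pair overlapped, at 25.5% ± 5.44 in cKO and 29.4% ± 3.33 in control. The call of Slc25a12 was lost without cKO replicate 1 or 3 or control replicate 3 (0.0609 to 0.168) and under the filter of 10 CPM in 3 libraries (0.103), and that of Slc25a13 without any 1 library but cKO replicate 2 (0.0647 to 0.198), in DESeq2 (0.0591), in thinned libraries (0.163) and with upper quartile scaling (0.0510).

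The glutamate carrier gene Slc25a22 fell by 0.92 ± 0.30 to 2.61 ± 0.605 CPM in cKO, against 4.95 ± 0.315 CPM in control (SD, n = 3 each; edgeR adjusted p = 0.0234). Its call was lost without cKO replicate 1 or 2 or control replicate 1 or 3 (0.0566 to 0.0718). Slc25a38, the glycine carrier that supplies heme synthesis, had 1.26, 2.17 and 2.30 CPM in cKO, against 4.39, 4.59 and 3.81 CPM in control. It fell by 1.16 ± 0.35 (adjusted p = 0.0145, and 0.0680 without cKO replicate 1). Slc25a44, the branched-chain amino acid carrier, did not pass, with 6.78 ± 0.42 CPM in cKO and 7.84 ± 0.759 CPM in control (log2 fold change -0.21 ± 0.22, adjusted p = 0.456). The second glutamate carrier Slc25a18 had at most 4 counts in a cKO library and at most 3 in a control library and was not tested, like Slc25a2.

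Enzymes that work on the same amino acids were read from the same fit. Of 10 tested genes of ornithine and glutamate metabolism, 7 fell and 2 rose, with a median log2 fold change of -1.38. That is 70% lower and 20% higher, against 20.7% and 24.0% of all tested genes. Odc1, which turns ornithine into putrescine, fell by 2.03 ± 0.19 (log2, SE; edgeR adjusted p = 1.77e-06). Arg1, the cytosolic arginase that forms ornithine and is also abundant in macrophages, rose by 1.71 ± 0.17 (2.02e-06). Among the 4 enzymes of the malate-aspartate shuttle, Mdh1 (-1.21 ± 0.21, adjusted p = 0.000321) and Got2 (-0.64 ± 0.15, 0.00330) fell, and Mdh2 (-0.10) and Got1 (0.09) did not pass (median -0.37).

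Of the 3 tested di- and tricarboxylate carriers 2 fell, and all 3 overlapped between the groups. Slc25a1, the citrate carrier that supplies acetyl units for lipid synthesis (chromosome 16, 17925223 to 17928219), had 7.66, 11.6 and 7.29 CPM in cKO, against 22.3, 17.0 and 11.2 CPM in control. It fell by 0.93 ± 0.26 (log2, SE; edgeR adjusted p = 0.00912), and cKO replicate 2 lay above the lowest control. Without control replicate 1 the call was lost (0.0817). Slc25a11, the oxoglutarate/malate carrier, had 12.3, 12.3 and 12.8 CPM in cKO, against 16.1, 17.6 and 12.4 CPM in control, and did not pass (-0.30 ± 0.19, adjusted p = 0.201). Slc25a10, the dicarboxylate carrier, fell by 0.83 ± 0.29 to 3.64 ± 0.95 CPM in cKO, against 6.48 ± 1.55 CPM in control (SD, n = 3 each; 0.0323). That call was lost without cKO replicate 2 or 3 or control replicate 1 or 2 (0.0783 to 0.122). Slc25a21 had 1 count in all. Among 7 genes of citrate use, 3 fell and 0 rose (median -0.49). That is 42.9% lower, against 20.7% of all tested genes. The falls included Fasn, the fatty acid synthase (-1.08 ± 0.17, adjusted p = 0.000127), and Cs, the citrate synthase (-0.49 ± 0.16, 0.0236).

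Slc25a20, the carnitine/acylcarnitine carrier that brings fatty acids into the matrix for oxidation (chromosome 9, 108662088 to 108684641), had 7.28, 5.64 and 7.42 CPM in cKO, against 3.06, 1.77 and 1.65 CPM in control. Every cKO library lay above every control library. The rise was 1.66 ± 0.32 (log2, SE; edgeR adjusted p = 0.000599) on 13 to 23 counts per control library, and ran from 1.51 to 1.99 when 1 library was left out. Its share of all SLC25 counts was 2.0% ± 0.39 in cKO and 0.337% ± 0.101 in control (SD, n = 3 each). The other 6 tested genes of the carnitine system did not share a direction, with 1 rise, 1 fall and a median of 0.28. That is 16.7% each way, against 24.0% higher and 20.7% lower of all tested genes. Cpt2, which frees the acyl group again inside the matrix, fell (-0.73 ± 0.25, adjusted p = 0.0289), and Cpt1a, which forms acylcarnitine at the outer membrane, did not pass (0.51 ± 0.21, 0.0624). Cpt1c rose (adjusted p = 0.00107) with a mean of 1.37 CPM in cKO against 0.0443 CPM in control; the control mean is under the limit of a count of 0, so no fold is given.

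The mitoferrins, which bring iron in for heme and iron-sulfur clusters, stood in a different ratio to each other in every cKO library than in any control library. Slc25a28 (mitoferrin 2) had 10.8, 12.2 and 10.4 CPM in cKO, against 19.1, 12.5 and 17.5 CPM in control. Slc25a37 (mitoferrin 1, the isoform of red cell precursors) had 12.3, 12.9 and 9.96 CPM in cKO, against 8.24, 9.19 and 10.4 CPM in control. Slc25a28 fell by 0.56 ± 0.20 (log2, SE; edgeR adjusted p = 0.0333), and the call was lost without cKO replicate 1 or 3 or control replicate 1 or 3 (0.0736 to 0.147). Its share of all SLC25 counts was nevertheless 3.26% ± 0.199 in cKO and 2.59% ± 0.554 in control (SD, n = 3 each). Both mitoferrins together took 6.7% ± 0.697 in cKO and 4.07% ± 0.677 in control. In both shares, every cKO library lay above every control library. The same held for the shares of Slc25a11, Slc25a17, Slc25a44 and Slc25a45, none of which passed the test. The summed level of the carriers was lower in cKO on the TMM scale, so a carrier that fell less than the sum gained share. Slc25a37 did not pass (0.34 ± 0.20, adjusted p = 0.195), but did when genes needed 10 CPM in 3 libraries (0.55, 0.0246), a filter under which Slc25a28 did not (0.132). Slc25a37 made up 53.3% (exact 95% interval 50.7 to 56.0), 51.4% (47.9 to 54.8) and 48.8% (46.0 to 51.7) of the counts of the pair in cKO. In control it made up 30.1% (23.9 to 36.9), 42.4% (35.2 to 49.9) and 37.3% (30.9 to 44.0). The log2 ratio of Slc25a37 to Slc25a28 differed by 0.87 (exact permutation p = 0.1, adjusted 0.225) and by 0.66 without control replicate 1.

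Of 12 genes that use iron in mitochondria, 6 fell and 1 rose in the same fit, with a median log2 fold change of -0.56. That is 50% lower and 8.33% higher, against 20.7% and 24.0% of all tested genes. Isca1 (-1.48 ± 0.22, edgeR adjusted p = 6.43e-05), Nfs1 (-1.95 ± 0.34, 0.000269) and Iscu (-1.28 ± 0.22, 0.000270), all of iron-sulfur cluster assembly, had the smallest p-values. Alas1, the first enzyme of heme synthesis, rose by 0.69 ± 0.23 (0.0236).

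Cofactor carriers held the most abundant gene of the family in control. Slc25a39, which brings glutathione into the matrix (chromosome 11, 102402985 to 102407946), had 40.3, 49.0 and 44.0 CPM in cKO, against 138, 116 and 120 CPM in control. Slc25a51, the NAD carrier (chromosome 4, 45395923 to 45408766), had 23.2, 33.1 and 28.0 CPM in cKO, against 82.4, 75.2 and 70.6 CPM in control. For both genes the groups were far apart. Slc25a39 fell by 1.49 ± 0.16 (log2, SE; edgeR adjusted p = 4.21e-06) and Slc25a51 by 1.44 ± 0.17 (9.78e-06), more than the family's median. The 9 cofactor carriers took 26.3% ± 1.29 of the SLC25 counts in cKO and 35.8% ± 1.58 in control (SD, n = 3 each). That class difference of -9.54 points stood beside -6.73 points for Slc25a39 and -3.83 points for Slc25a51. Of the 9 genes, 4 fell and 5 did not pass, which is 44.4% lower against 20.7% of all tested genes. The second glutathione carrier Slc25a40 was far scarcer, at 0.707 ± 0.171 CPM in cKO and 0.923 ± 0.411 CPM in control, and did not pass (adjusted p = 0.651).

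Slc25a26, which imports the methyl donor S-adenosylmethionine, had 1.62, 2.08 and 2.27 CPM in cKO, against 5.98, 2.71 and 4.32 CPM in control. It fell by 1.12 ± 0.36 (edgeR adjusted p = 0.0206), and the call was lost without cKO replicate 1 or control replicate 1 or 3 (0.0529 to 0.117). Lrig1, which overlaps it on the other strand, fell by a similar amount (-1.13 ± 0.34, adjusted p = 0.0151). Slc25a16, implicated in coenzyme A uptake, fell by 0.98 ± 0.34 (0.0306, lost without cKO replicate 1 or 3 or control replicate 1 or 2 at 0.0555 to 0.151). The peroxisomal carrier Slc25a17, the coenzyme A carrier Slc25a42 and the FAD and folate carrier Slc25a32 did not pass, with log2 fold changes of -0.30, -0.77 and -0.94.

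**Figure D4:**
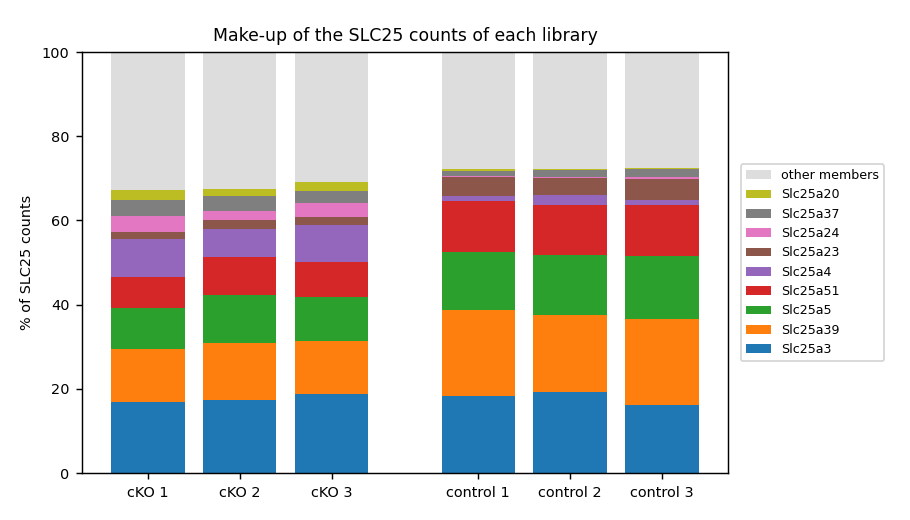
Make-up of the SLC25 counts of each library in % of their sum, a measure that needs no scaling between libraries; each bar is 1 library and colours are genes. Slc25a39, Slc25a5, Slc25a51 and Slc25a23 take smaller parts in the cKO bars, and Slc25a4, Slc25a24, Slc25a37 and Slc25a20 larger ones.

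The pyrimidine nucleotide carriers, which serve mitochondrial DNA and RNA synthesis, did not pass the test. Slc25a33 had 1.09, 1.93 and 1.57 CPM in cKO, against 3.46, 2.59 and 2.54 CPM in control (log2 fold change -0.91 ± 0.40, edgeR adjusted p = 0.0788). Slc25a36 had 1.21, 1.06 and 1.18 CPM in cKO, against 1.33, 0.589 and 1.14 CPM in control (0.19 ± 0.54, 0.806). Slc25a36 had 5 to 10 counts per control library, and its groups overlapped, whereas those of Slc25a33 did not. On these low counts, the log2 ratio of Slc25a33 to Slc25a36 was lower in every cKO library than in any control library. The difference was -1.12 (exact permutation p = 0.1, adjusted 0.225). Of the relatives of the uncoupling proteins, Slc25a14 (UCP5) had 0.910, 1.69 and 0.967 CPM in cKO, against 1.73, 2.12 and 1.52 CPM in control (-0.61 ± 0.48, 0.330), and Slc25a27 and Slc25a30 had too few counts.

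Among genes with no transport role given here, Slc25a46, an outer membrane protein that shapes mitochondria, had 9.64, 12.8 and 11.0 CPM in cKO, against 20.9, 16.7 and 15.6 CPM in control. It fell by 0.67 ± 0.19 (edgeR adjusted p = 0.0110, and 0.0659 without control replicate 1). Slc25a45 had 7.28, 6.09 and 6.25 CPM in cKO, against 7.84, 7.66 and 7.87 CPM in control, and did not pass (-0.25 ± 0.22, 0.377). Slc25a35 had the most negative fold change of the family, -2.50 ± 0.47 (adjusted p = 0.000641), with 0.522, 1.90 and 1.08 CPM in cKO, against 4.39, 10 and 4.95 CPM in control. Its fold change was -2.02 without control replicate 2 and -3.0 without cKO replicate 2. Rangrf overlaps Slc25a35 on the other strand and fell too (-1.29 ± 0.48, adjusted p = 0.0406). The 13 genes that were not tested were Slc25a2, Slc25a18, Slc25a21, Slc25a27, Slc25a30, Slc25a31, Slc25a34, Slc25a41, Slc25a43, Slc25a47, Slc25a48, Slc25a53 and Slc25a54. None of them exceeded 21 counts in any library, and Slc25a41, Slc25a48 and Slc25a54 had 0 throughout. Slc25a54 lies next to Slc25a24 on chromosome 3.

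Members of the carrier superfamily that bear other names, and the machinery that inserts carriers, gave values of both directions. Ucp2 rose by 0.96 ± 0.21 (log2, SE; edgeR adjusted p = 0.00198), with means of 27.2 CPM in cKO and 14.0 CPM in control, and is also abundant in leukocytes. Mtch2 fell by 0.68 ± 0.16 (0.00330), Mtch1 did not pass (0.26, 0.202), and Ucp1 and Ucp3 were not tested. Of 13 tested genes of the TIM22 import route, 7 fell and 0 rose, with a median of -0.71. That is 53.8% lower, against 20.7% of all tested genes. Timm22, the channel subunit, fell by 1.63 ± 0.16 (2.02e-06), Timm8b by 1.00 ± 0.19 (0.000606) and Timm13 by 0.72 ± 0.17 (0.00345). The other 6 genes of the route did not pass. The pyruvate carrier, which belongs to another family, fell in both subunits (Mpc2 -1.39 ± 0.20, 6.73e-05; Mpc1 -1.23 ± 0.21, 0.000249). The outer membrane porin Vdac2 fell by 1.20 ± 0.15 (1.49e-05), whereas Vdac1 (-0.40, 0.0575) and Vdac3 (-0.04, 0.866) did not pass.

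The cKO libraries were not alike in how far they lay from the controls. For 16 of the 22 carriers that changed (72.7%), cKO replicate 2 was the cKO library nearest to the control mean, against 70.2% of all genes that changed, by distance in log2(CPM + 0.5). Replicate 3 was nearest for 5 of the carriers and replicate 1 for 1. The median log2 ratio of the carriers to their control means was -0.71 in cKO replicate 1, -0.48 in replicate 2 and -0.65 in replicate 3. These ratios had 0.5 CPM added to each level, which shrinks those of scarce carriers, and are not comparable with the fitted median of -0.80. Without cKO replicate 2 there were 15 falls and 4 rises among the carriers.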

How the data were processed

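What the authors deposited are raw counts per gene symbol, unnormalized, with a table for each library. The labels' protocols give 500 ng of total RNA and the QuantSeq kit as input. Bowtie2, edgeR, mm10 and GRCm38 appear in the submitters' processing notes without roles. No source used here names the counter, its strand setting or how it treated multiply matching reads. Counts near a 3' end reflect the annotated end more than transcript length.

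All 23282 rows were fitted with edgeR 4.0.16 in R 4.3.3 (filterByExpr with minimum count 10 and total 15, TMM, robust quasi-likelihood F test). The fit was first run on counts simulated from the control means with a small part of the genes changed. That run does not check the scaling between groups as unlike in make-up as these. SE is the size of the log2 fold change divided by the square root of F. Pair ratios took a prior count of 0.5, and genes needed 10 counts over all libraries, which left 9 of 10 listed pairs. For 4 of these 9 pairs the groups did not overlap. Among the others, the log2 ratio of Slc25a10 to Slc25a11 differed by -0.55 (exact permutation p = 0.2). That of Slc25a29 to Slc25a15 differed by 0.41 (0.5) and that of Slc25a39 to Slc25a40 by -1.08 (0.2). Substrate classes, lists and the rule for genes given per library (the 2 most abundant of each class and those changed at least 2-fold; of each related list, up to 3 with the smallest p) were chosen with earlier results of these data known. Alternatives were other scalings, filters, thinning, DESeq2 1.42.0, a replicate block and leaving out each library. Promoters are from RefSeq. Values of 1 carrier and of 2 genes of the related lists are not reported here; counts and medians include them.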

Additional observations from a re-analysis of the deposited data

How the results depend on the processing

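On library totals, without a scaling factor, 33 carriers were higher and 0 lower with a median of 2.51, as were 12654 of all genes against 53 lower, and 58 genes of the related lists against 0. Of the genes whose sign turned there, those given here had log2 fold changes of 2.26 for Slc25a16, 2.35 for Slc25a3, 0.60 for Slc25a35, 2.97 for Slc25a11, 1.76 for Slc25a39, 2.50 for Slc25a10, 1.59 for Slc25a29, 2.28 for Slc25a32, 2.97 for Slc25a17, 2.27 for Slc25a1, 1.08 for Slc25a23, 2.57 for Slc25a46, 3.04 for Slc25a45, 2.70 for Slc25a28, 2.61 for Slc25a12, 3.07 for Slc25a44, 1.79 for Slc25a51, 2.29 for Slc25a33, 2.93 for Slc25a40, 2.30 for Slc25a13, 2.14 for Slc25a26, 2.40 for Slc25a22, 1.18 for Slc25a15, 2.51 for Slc25a42, 2.06 for Slc25a38, 1.90 for Slc25a5, 2.54 for Slc25a14. The family's share of the TMM effective size was different by -0.0291 points (cKO minus control). The share of the library total was 0.0865 points higher, and that of counts outside the digestive list, Rn45s and Casp9 was 0.016 points higher. A stricter filter, 10 CPM in 3 libraries, tested fewer genes: 2 carriers were higher (Slc25a4 and, gained there, Slc25a37 at an adjusted p of 0.0246) and 8 lower, 1443 and 1425 of all genes, and 18 genes of the related lists lower; 11 of the 22 called carriers were tested, and Slc25a28 (0.132) and Slc25a12 (0.103) lost their calls. The carriers' median was -0.60 with no filter and -0.67 in thinned libraries.

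With each library left out in turn, 3 to 4 carriers were higher and 10 to 15 lower, with medians of -0.77 to -0.70, and 3 to 6 genes of the related lists were higher (3 without cKO replicate 3 or control replicate 3). Signs turned for Slc25a40 (-0.55 to 0.06) and Slc25a36 (-0.10 to 0.42), neither of which passed the test. The cause was not tested. DESeq2 size factors in edgeR kept all 22 calls, and DESeq2 kept 21. Same-numbered libraries did not deviate together (correlations -0.0295 to 0.0142), so the numbers are not read as pairs. With the replicate block 21 of 22 calls remained and the Slc25a5 to Slc25a4 difference was -2.86 (paired exact permutation p = 0.25, the smallest possible).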
